A study of Mus musculus with 4 samples.

Results

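The regions described are the neighbourhoods of 5 mouse genes known as transcriptional targets of Wnt signalling: Axin2, Rnf43, Sp5, Ccnd1 and Myc. Each neighbourhood is a window in the mm9 build that holds the gene and about 50 kb on each side. Every deposited peak that shared 1 bp or more with a window was taken as a member. They came to 5 of 774 TCF7L2 peaks, 4 of 10530 GATA4 peaks and 27 of 75011 H3K27ac peaks. The peaks come from chromatin immunoprecipitation with sequencing (ChIP-seq) on cardiac ventricles of wild-type C57BL/6 mice at postnatal day 6, and the labels give no treatment. Each precipitation took the combined ventricles of 10 hearts, the labels mention no sorting of cell types, and they state 2 biological replicates per antibody. There is 1 peak list per antibody, with positions and no heights, so no value has a replicate error and read depth is unknown. The input sample was not analysed here. Lists of positions hold no expression, so the labelled tissue was not checked against markers.

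In canonical Wnt signalling, a ligand at a Frizzled receptor stabilises beta-catenin, which enters the nucleus and joins DNA-bound factors of the TCF/LEF family, of which TCF7L2 is one. GATA4 is a zinc-finger factor of heart muscle development, and H3K27ac is acetylation of histone H3 at lysine 27, found at active promoters and enhancers. Axin2 is a scaffold of the complex that degrades beta-catenin, and Rnf43 is a membrane ubiquitin ligase that removes Frizzled from the cell surface; both feed back negatively on the pathway. Sp5 is a zinc-finger factor of the Sp family, Myc is a growth-promoting transcription factor, and Ccnd1 encodes cyclin D1, which drives entry into the cell cycle.

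The windows were chromosome 11 from 108730000 to 108865000 for Axin2, chromosome 11 from 87425000 to 87600000 for Rnf43, chromosome 2 from 70262000 to 70367000 for Sp5, chromosome 7 from 152065000 to 152176000 for Ccnd1, and chromosome 15 from 61766000 to 61872000 for Myc. The stretch left after taking 50 kb from each end, called the inner stretch, is where the window rule puts the gene. Before and after it mean at lower and higher coordinates, whatever the strand of the gene. No mm9 annotation was used, so gene ends are known only to that accuracy, and exons, introns and UTRs were not assigned. In the RefSeq table for GRCm38.p6, the neighbouring coding genes are Cep112 and Rgs9 for Axin2, and Hsf5 and Supt4a for Rnf43. For Sp5 they are Myo3b and Erich2, and for Myc A1bg and Gsdmc. For Ccnd1 they are LTO1, which lies on the lower-coordinate side and overlaps the gene, and Tpcn2. A peak in a window may therefore lie at a neighbouring gene.

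The bases before the gene start are shown for the members whose promoters the RefSeq table (GRCm38.p6) holds, since 2 of them, Axin2 and Sp5, have a TCF7L2 peak in the inner stretch and Rnf43 has none. They are the 250 bases before the start, 5′ to 3′ on the forward strand, with capitals for the TCF-type motif CTTTGA and the GATA-type motif AGATAA on either strand. The table matched 3 of the 5 members, not Ccnd1 or Myc. The positions are chr2:70474673-70474922 for Sp5, chr11:108920099-108920348 for Axin2 and chr11:87662837-87663086 for the first of 2 Rnf43 promoters, all in GRCm38.p6, and no position was carried over to mm9.
Sp5: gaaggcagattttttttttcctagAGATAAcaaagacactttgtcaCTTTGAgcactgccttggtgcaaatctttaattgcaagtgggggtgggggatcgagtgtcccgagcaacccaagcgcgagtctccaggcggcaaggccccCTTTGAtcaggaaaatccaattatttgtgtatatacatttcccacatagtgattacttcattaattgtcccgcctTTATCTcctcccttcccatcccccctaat
Axin2: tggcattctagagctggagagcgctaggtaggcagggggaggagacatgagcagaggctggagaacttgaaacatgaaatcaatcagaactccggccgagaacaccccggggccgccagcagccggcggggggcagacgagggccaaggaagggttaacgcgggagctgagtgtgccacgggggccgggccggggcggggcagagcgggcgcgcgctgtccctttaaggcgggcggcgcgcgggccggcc
Rnf43: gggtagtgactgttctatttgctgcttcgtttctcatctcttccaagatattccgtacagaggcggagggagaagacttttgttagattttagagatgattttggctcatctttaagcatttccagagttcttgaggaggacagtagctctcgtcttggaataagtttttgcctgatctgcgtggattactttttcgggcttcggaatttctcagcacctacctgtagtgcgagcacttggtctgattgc

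The Sp5 stretch held CTTTGA at 2 places, beginning 204 and 104 bases before the start and both on the forward strand. It also held AGATAA at 2 places, beginning 226 bases before the start on the forward strand and 29 bases before it on the reverse strand. No TCF motif overlapped a GATA motif there. The Axin2 stretch and both Rnf43 stretches held neither. Of 32851 promoters in the table, 13.8% held CTTTGA and 9.99% held AGATAA in the same 250 bases. The G and C share was 69.2% for Axin2, with 24 CpG dinucleotides, against 46% and 6 for Sp5 and 44.4% and 8 for the Rnf43 stretch shown. Over all promoters the medians were 52.4% and 6. A match of letters is a description of the sequence and not a measured site, and no match says nothing about binding outside these bases.

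The same search was made for 30 other genes of the Wnt pathway. The table held 18 of these, and 7 had CTTTGA in a promoter: Dkk1, a secreted Wnt antagonist; Fzd1, a Frizzled receptor; Gsk3b, the kinase that marks beta-catenin for degradation; Lef1, a TCF/LEF factor; Sp8, an Sp-family relative of Sp5; T, the Brachyury factor; and Tnfrsf19, a receptor of the TNF family. Counted by promoter, these were 7 of 27, or 25.9%. AGATAA was found in Cd44, Fzd1 and Tcf7l2, 3 of 27 promoters or 11.1%. The peaks of these genes were not analysed here, since no mm9 positions were at hand for them.

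TCF7L2 peaks lay in 3 of the 5 windows: 3 at Axin2, 1 at Sp5 and 1 at Ccnd1, with 0 at Rnf43 and 0 at Myc. To set these counts beside the rest of each chromosome, it was divided into windows of the same length in register with the gene's window. Among 878 windows of 135 kb on chromosome 11, 6.26% held a TCF7L2 peak, and 1 held as many as the 3 at Axin2. Those 3 together spanned 2235 bp, and whether they are separate binding sites was not tested. The shares with a TCF7L2 peak were 8.14% of 676 windows of 175 kb for Rnf43, 3.18% of 1699 windows of 105 kb for Sp5, 3.72% of 1345 windows of 111 kb for Ccnd1, and 2.97% of 944 windows of 106 kb for Myc. Most windows of these chromosomes thus held no TCF7L2 peak, as did those of Rnf43 and Myc. These shares describe the chromosomes, which include gene-poor stretches, and no test was made on them.

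GATA4 peaks also lay in 3 windows, with 1 at Axin2, 1 at Ccnd1 and 2 at Myc, and 0 at Rnf43 and 0 at Sp5. The share of same-length windows with 1 or more was 46.1% for Axin2, 51% for Rnf43, 29.5% for Sp5, 27.8% for Ccnd1 and 25.6% for Myc. As many as the 2 GATA4 peaks at Myc were found in 9.75% of its windows. Axin2 and Ccnd1 thus had TCF7L2 and GATA4, Sp5 had TCF7L2 alone, Myc had GATA4 alone, and Rnf43 had neither.

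**Figure D1:**
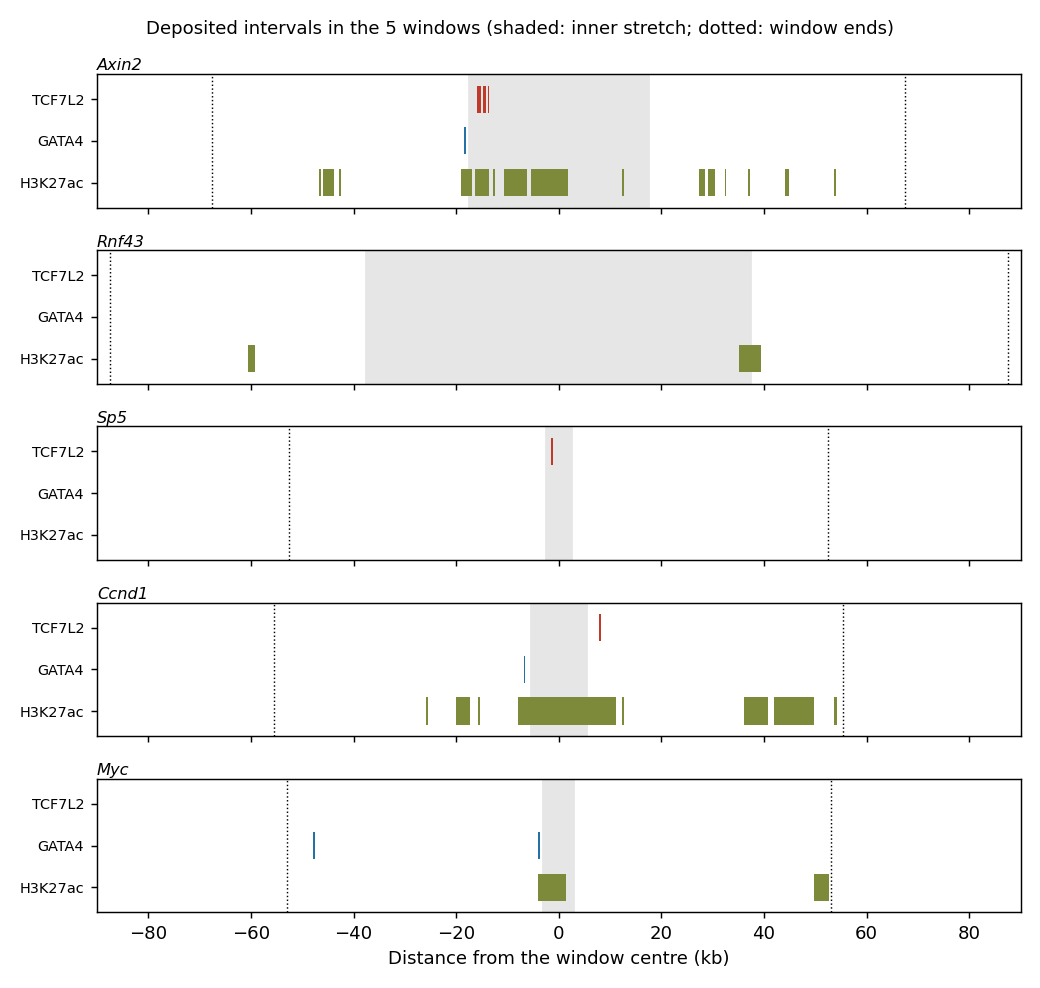
Positions of the deposited TCF7L2, GATA4 and H3K27ac peaks in the 5 windows, as distance in kb from each window's centre; shading marks the inner stretch and dotted lines the window ends, and peaks narrower than 0.36 kb are drawn at that width. Axin2 has 15 H3K27ac peaks and 3 TCF7L2 peaks, and Sp5 has 1 TCF7L2 peak and no H3K27ac.

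Acetylation differed widely among the windows. H3K27ac covered 35.8 kb or 32.2% of the Ccnd1 window, 24.3 kb or 18% of the Axin2 window, 8.39 kb or 7.92% of the Myc window, 5.54 kb or 3.16% of the Rnf43 window, and 0% of the Sp5 window. Together this was 74 of 632 kb, or 11.7%. Coverage at or above the gene's own was seen in 12.9% of same-length windows for Ccnd1, 35.6% for Axin2, 29.3% for Myc and 60.1% for Rnf43. The medians of those windows were 0.191% for Ccnd1, 6.59% for Axin2, 0.461% for Myc, 8.26% for Rnf43 and 1.78% for Sp5. The windows of Axin2, Ccnd1 and Myc were thus above the median of their chromosome and those of Rnf43 and Sp5 below it. These medians include windows without H3K27ac. Beside only windows that held it, the median was 17.8% for Axin2, close to its own share, 10.4% for Myc and 13.4% for Ccnd1. For Sp5, 38.9% of the same-length windows likewise had no H3K27ac.

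In the inner stretches coverage was higher at Ccnd1, Myc and Axin2, and Myc and Axin2 changed places in the order. H3K27ac covered 100% of the 11 kb at Ccnd1, 74.3% of the 6 kb at Myc, 46% of the 35 kb at Axin2, 3.23% of the 75 kb at Rnf43 and 0% of the 5 kb at Sp5. Among stretches of the same length on each chromosome, coverage at least as high was found in 2.39% for Ccnd1, 6.63% for Myc, 15% for Axin2 and 53.1% for Rnf43. The cut to inner stretches was chosen after the data were seen. Around Axin2 the flanks were covered to 8.22% before and 8.2% after the inner stretch, and around Myc to 1.94% and 5.93%. Ccnd1 had 11.8% before and 37.7% after, so acetylation there was not limited to the inner stretch.

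**Figure D2:**
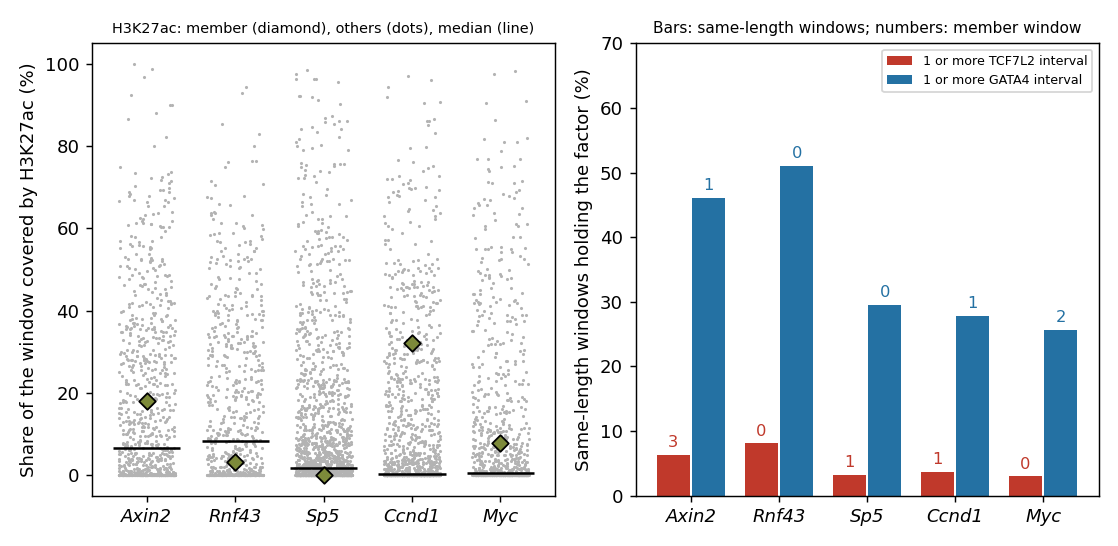
Left, the share of each window covered by H3K27ac in percent (diamonds) with all other windows of the same length on its chromosome (dots, spread sideways at random) and their median (line). Right, the percent of those other windows with 1 or more TCF7L2 or GATA4 peak (bars), with the count in the gene's own window above each bar; Ccnd1 at 32.2% and Axin2 at 18% lie highest in acetylation.

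Axin2, the negative feedback scaffold, had 3 TCF7L2 peaks side by side. They ran from 108781632 to 108782419 (788 bp), from 108782714 to 108783335 (622 bp) and from 108783622 to 108783866 (245 bp). The first began 1632 bp and the last 3622 bp inside the inner stretch, and the gaps between neighbours were 294 and 286 bp. By width they ranked 4, 13 and 230 among the 774 TCF7L2 peaks, whose median was 198.5 bp, so all 3 were wider than the median. Width is no measure of binding strength, which the lists do not hold.

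All 3 Axin2 peaks lay inside 1 H3K27ac peak of 2724 bp (108781213 to 108783936). TCF7L2 covered 1655 bp or 60.8% of it. In the whole list 616 H3K27ac peaks held TCF7L2; 26 of them held 2 or more and 3 held 3 or more, the Axin2 peak among these. TCF7L2 covered as large a share in 6 of the 616, the Axin2 peak included. Of the 616, 83.9% were as wide as the Axin2 H3K27ac peak or wider, against 31.2% of the whole H3K27ac list. The genes were chosen with results of these lists known, so these ranks are a description.

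The only GATA4 peak of the Axin2 window (108779121 to 108779298, 178 bp) lay 702 bp before the inner stretch, in a separate H3K27ac peak of 2118 bp (108778453 to 108780570). The nearest TCF7L2 peak was 2334 bp away. Of the 460 TCF7L2 peaks without GATA4 overlap, 12.4% had a GATA4 peak as near or nearer, and the median distance was 37 kb. Acetylation went on after the TCF7L2 group, with H3K27ac peaks of 474 bp, 4579 bp (108786793 to 108791371) and 7305 bp (108792024 to 108799328), the last the widest of the window. Joined across gaps of up to 12.5 kb, H3K27ac formed a stretch of 31.8 kb here from 6 peaks. The other H3K27ac peaks of the window were 136 to 1976 bp wide.

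Rnf43, the ligase that removes Frizzled, had no peak of either factor. The nearest TCF7L2 peak lay 370 kb and the nearest GATA4 peak 19.2 kb outside its window. It had 2 H3K27ac peaks. The wider, of 4322 bp (87547580 to 87551901), lay across the far end of the inner stretch, on the side of Supt4a in the GRCm38.p6 order, and the other, of 1214 bp (87451997 to 87453210), ended 21790 bp before the inner stretch, on the side of Hsf5. Between them 94.4 kb had no H3K27ac. The start of the inner stretch was therefore without acetylation in this list, and 72580 bp separated it from the wider H3K27ac peak.

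Sp5 had a single TCF7L2 peak of 234 bp (70312960 to 70313193), which began 960 bp inside the inner stretch of 5 kb. No H3K27ac or GATA4 peak lay in the window. The nearest H3K27ac peak was 137 kb and the nearest GATA4 peak 186 kb from the TCF7L2 peak. Of 774 TCF7L2 peaks, 129 were outside H3K27ac; their median distance to it was 32.5 kb, and 27 were as far from it as the Sp5 peak or farther, with the Sp5 peak counted. The median width of the 129 was 186 bp. In whole lists, 83.3% of TCF7L2 peaks overlapped H3K27ac. In the windows 4 of 5 did, 80%, and the Sp5 peak was the exception. The exact 95% Clopper-Pearson interval, 28.4 to 99.5, takes the peaks as independent draws. They were all the TCF7L2 peaks of chosen windows, and 3 of the 4 shared an H3K27ac peak at Axin2. The interval is therefore too narrow. The Sp5 promoter was the one of the 3 printed promoters that held CTTTGA, as did 13.8% of all promoters. It held AGATAA too, with no GATA4 peak in the window. The Axin2 promoter held no CTTTGA, though its window had 3 TCF7L2 peaks. Whether the Sp5 TCF7L2 peak lies over the Sp5 promoter bases cannot be read without an mm9 sequence.

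**Figure D3:**
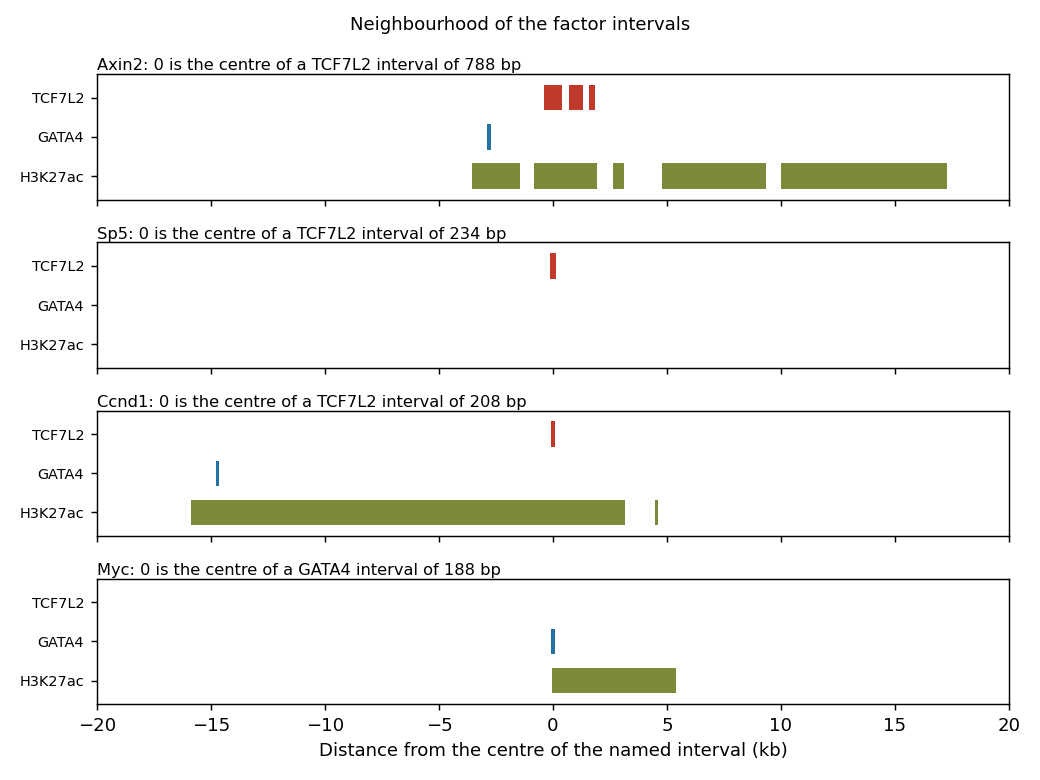
Peaks within 20 kb of a factor peak at Axin2, Sp5, Ccnd1 and Myc, as distance in kb from the centre of the peak named in each panel. The 3 Axin2 TCF7L2 peaks fill much of 1 H3K27ac peak, the Sp5 peak stands alone, and at Ccnd1 TCF7L2 and GATA4 lie near opposite ends of 1 H3K27ac peak.

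Myc, the growth-promoting factor, had no TCF7L2 peak, and the nearest lay 3111 kb outside its window. A GATA4 peak of 188 bp (61814967 to 61815154) lay 846 bp before the inner stretch and straddled the border of an H3K27ac peak of 5426 bp (61815032 to 61820457), with 123 bp or 65.4% of it inside. That H3K27ac peak stood alone: no other lay within 12.5 kb. A second GATA4 peak of 168 bp (61771059 to 61771226) was 43.8 kb from the nearest H3K27ac. The other H3K27ac peak of the window, of 2966 bp (61868761 to 61871726), belonged to a stretch of 20 kb that ran on past the window's end. In the GRCm38.p6 table the gene after Myc is Pvt1, a long non-coding RNA.

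At Ccnd1, the cyclin D1 gene, a broad H3K27ac peak of 19023 bp (152112542 to 152131564) covered the whole inner stretch. It may also lie at LTO1, which overlaps Ccnd1 in the GRCm38.p6 table. Peaks as wide or wider made up 2.49% of the H3K27ac list, whose median width was 1287 bp, and 20.6% of the 616 that held TCF7L2. It held 1 GATA4 peak of 134 bp (152113632 to 152113765), which lay 1235 bp before the inner stretch, and 1 TCF7L2 peak of 208 bp (152128304 to 152128511), which began 2304 bp after its end. The factors were 14539 bp apart, near opposite ends of the acetylated peak: GATA4 began 1090 bp from one border and TCF7L2 ended 3053 bp from the other. Of 343 H3K27ac peaks with both factors, 94 or 27.4% likewise had no TCF7L2 peak that overlapped GATA4. The next widest H3K27ac peaks of the window, of 7828 bp (152162474 to 152170301) and 4762 bp (152156533 to 152161294), belonged to a separate stretch of 80.3 kb from 16 peaks that continued beyond the window.

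Across the windows the factors never lay on the same place. None of the 5 TCF7L2 peaks overlapped a GATA4 peak, against 314 of 774 or 40.6% in the whole list. A count of 0 of 5 still allows a share of up to 52.2% (upper bound of the exact 95% Clopper-Pearson interval). Counted from the GATA4 side it was 0 of 4, where overlap with TCF7L2 was rare in the whole list too, 315 of 10530 or 2.99%. On H3K27ac lay 3 of the 4 GATA4 peaks, 75% (exact 95% Clopper-Pearson interval 19.4 to 99.4), against 79.4% of the GATA4 list. So few peaks do not separate the windows' shares from the lists', and 3 of the 5 TCF7L2 peaks shared 1 H3K27ac peak, so the intervals, which take peaks as independent, are too narrow. The 3 acetylated GATA4 peaks, at Axin2, Ccnd1 and Myc, lay 702, 1235 and 846 bp before the inner stretch, and none lay in it. Before here means at lower coordinates. Gene strand was not taken into account, so no shared side of the genes is implied. Inner stretches are short: of stretches of the same length, 18.3% held GATA4 for Axin2, 4.37% for Ccnd1 and 2.29% for Myc. Holding no GATA4 was thus the usual state of such stretches. By width the 4 GATA4 peaks ran from 134 to 188 bp, beside a list median of 184 bp, and the 5 TCF7L2 peaks from 208 to 788 bp, all above their list's median of 198.5 bp.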

How the data were processed

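ChIP-seq for TCF7L2, GATA4 and H3K27ac was analysed from 1 deposited peak list per antibody. The lists hold start and end positions in bp, another kind of value than counts or scores. The submitters' processing notes name the build mm9 and, in no stated order or role, MACS2 (version 2.1.1.20160309.0), Bowtie2 (version 2.2.6.2), deepTools and FastQC (version 0.10.0). The sources used here do not give the peak threshold or how the authors combined the 2 replicates. Starts were made 1-based. Overlap meant 1 bp or more, distances run between nearest bases, and same-length windows were laid end to end from the gene's window between the first and last position listed on its chromosome, leaving that window out. Promoters and gene order are RefSeq's (GRCm38.p6). The named genes were the 5 members, with every factor peak in their windows and the 3 widest H3K27ac peaks of each window and those with TCF7L2. The members and gene lists were chosen with earlier results of these data known, and no test across peaks or windows was made. The interval counts were tested on simulated data and were exact in 200 of 200 sets. Alternatives covered the overlap rule, the window length, the placing of windows, H3K27ac width and the motif. Scripts ran in Python 3.11.15 with pandas 2.3.3, matplotlib 3.10.9, scipy 1.17.1 and numpy 2.4.6.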

Additional observations from a re-analysis of the deposited data

How the results depend on the processing

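Of the other settings, 28 were planned with earlier results known and 4 (the inner stretches) were chosen after seeing the data. In 30 of the 32 the value stayed within 1.5 times the reported one. The other 2 were the GATA4 count and the covered share in the inner stretches. Not all of the 30 were free to move. The number of windows with a TCF7L2 peak does not use the same-length windows, so moving or restricting those could not change it. Shorter motifs and added bases could only keep or raise the promoter counts. Changes of the GATA4 count from 4 to 6, and of window counts from 3 to 2, were exactly at the limit. The 5 TCF7L2 peaks were 4 in the inner stretches and 5 in the other settings. The GATA4 count fell from 4 to 0 in the inner stretches, which by construction are shorter, and was 3 to 6 in the other settings. The numbers of windows with TCF7L2 and above the median in GATA4 were left out of the inner-stretch settings. In its inner stretch Ccnd1 had 0 TCF7L2 peaks, where 0.383% of stretches of that length held one. None of the 5 inner stretches had GATA4, so none was above the median in it. Among stretches of the same length, GATA4 was in 18.3% for Axin2, 32.4% for Rnf43, 2.07% for Sp5, 4.37% for Ccnd1 and 2.29% for Myc. The covered share of 11.7% was 10.4% without H3K27ac peaks narrower than their median, 13.3% with windows 50 kb longer on each side, 14.2% with windows 25 kb shorter and 25.7% in the inner stretches. Set beside only the same-length windows that held H3K27ac, Myc was no longer above the median in acetylation, with 54.9% at or above its share. Axin2 stood almost at that median, with 18% covered against 17.8%, and was no longer above the median in GATA4. With windows 50 kb longer, Rnf43 passed the median, with 13.9% covered. No paired analysis was possible because each antibody has 1 list. Without peak heights or depth, a peak missing from a list cannot be told from a weak one.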

Other observations

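Windows lengthened by 50 kb on each side brought no further TCF7L2 peak to any of the 5 genes. TCF7L2 was in 10.1% of windows of that length for Axin2, 11.9% for Rnf43, 5.98% for Sp5, 6.37% for Ccnd1 and 5.36% for Myc. Most such windows thus held none. At Rnf43 the longer window added 1 GATA4 peak, where 65.3% of windows of that length held 1 or more. It took the H3K27ac peaks from 2 to 3 and the covered share from 3.16% to 13.9%. Most of the acetylation near this gene thus lay beyond the shorter window. Axin2 had 2 GATA4 peaks and 16 H3K27ac peaks in the longer window, and its covered share fell to 10.5%. Ccnd1 went from 8 to 19 H3K27ac peaks with 33.1% covered, and Myc from 2 to 7 with 8.68%. Sp5 still had 0 H3K27ac and 0 GATA4 peaks, as against 29% of windows of that length on chromosome 2 without H3K27ac.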
